A study of Homo sapiens with 10 samples.

Results

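ZFP36, ZFP36L1, ZFP36L2, BTG1, BTG2, BTG3, TOB1, TOB2, ZC3H12A and RC3H1 encode RNA-binding proteins, adaptors and a nuclease that set how fast messenger RNAs are degraded. They were chosen by name, for their role, and all 10 were found by symbol among the 20263 genes of the deposited table. RNA sequencing gave their transcript levels in PANC-1, a long-established cell line derived from a pancreatic carcinoma. The LY group was treated with 20 µM LY for 24 h, LY standing for lycorine, a plant alkaloid of the Amaryllidaceae, per the series title. The DMSO group is the vehicle control, and each group has 5 libraries, LY-1 to LY-5 and NC-1 to NC-5. The NC columns could be tied to the DMSO group but not to single DMSO samples. The series text gives 4 samples per group where the labels list 5, and all 10 columns were used. All libraries come from 1 cell line, and no source used here says whether the 5 libraries of a group were separate cultures, so p-values measure the spread between these libraries only.

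Most cytoplasmic mRNA decay starts with the shortening of the poly(A) tail, which the CCR4-NOT complex carries out through its deadenylase subunits. Proteins of the ZFP36 family bind AU-rich elements in the 3′ untranslated region (3′ UTR) of short-lived mRNAs, many of them for cytokines and growth regulators, and recruit CCR4-NOT. BTG and TOB proteins share a domain that binds the deadenylases CNOT7 and CNOT8, and they are known as antiproliferative factors. ZC3H12A, also called Regnase-1, is an endonuclease that cuts stem-loops in the 3′ UTRs of inflammatory mRNAs, and RC3H1, also called Roquin-1, binds such stem-loops and recruits deadenylases.

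ZFP36 proteins bind AU-rich sites with the pentamer AUUUA, and the nonamer UAUUUAUUU, which contains it, was counted here. Other nonamers around the pentamer, such as UUAUUUAUU, were not counted. Transcripts of the regulators carry the counted letters themselves. In the longest annotated 3′ UTR of each gene (GENCODE release 29, GRCh38), 9 of the 10 members held at least 1 pentamer and 3 held 1 nonamer each, namely ZFP36L1, ZFP36L2 and RC3H1. The 3 sites of UAUUUAUUU are shown with their flanks. Each is written 5′ to 3′ on the transcript strand, with the nonamer in capitals.
ZFP36L1, chr14:68788075-68788104, minus strand: acuguuggauUAUUUAUUUuagaaauuccc
ZFP36L2, chr2:43223210-43223239, minus strand: uuguauguaaUAUUUAUUUcauuaauuucu
RC3H1, chr1:173933681-173933710, minus strand: augauuuuuaUAUUUAUUUguugcuucagc
The nonamers themselves begin at base 2394, 1090 and 5021 after the stop codon. Of the 3 genes, ZFP36L1 and ZFP36L2 had higher levels in LY libraries and RC3H1 did not pass the test, as detailed below.

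Members without UAUUUAUUU differed in how their pentamers were placed. The ZFP36 window below does hold UUAUUUAUU, which was not counted. The window with most pentamers is shown for ZFP36, TOB1, BTG1, BTG2 and BTG3, with the pentamers in capitals. Where several places tie, the first is shown, and the pentamers of TOB1 are adjacent.
ZFP36, chr19:39409188-39409217, plus strand: ccuuuAUUUAugacgacuuuAUUUAuucua
TOB1, chr17:50862645-50862674, minus strand: uaauuguauaAUUUAAUUUAguacaaaguu
BTG1, chr12:92143975-92144004, minus strand: auggauuauggaAUUUAaaccaugucacag
BTG2, chr1:203307528-203307557, plus strand: aaaugaagagcuAUUUAuauauauuauuuu
BTG3, chr21:17593830-17593859, minus strand: uuggacuugaguAUUUAuauauugugcauc
ZFP36 held 5 pentamers in 713 bases, TOB1 4 in 757, BTG3 3 in 440, BTG1 5 in 3802, BTG2 2 in 2164 and TOB2 3 in 2819. ZFP36L1 held 8 in 2828 bases, ZFP36L2 5 in 1917 and RC3H1 21 in 7507. ZC3H12A, with 768 bases, held none. The median over 11492 tested genes with an annotated 3′ UTR was 2 pentamers in 1316 bases. A match of letters is a description of the annotated sequence, and no binding was measured.

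**Figure D1:**
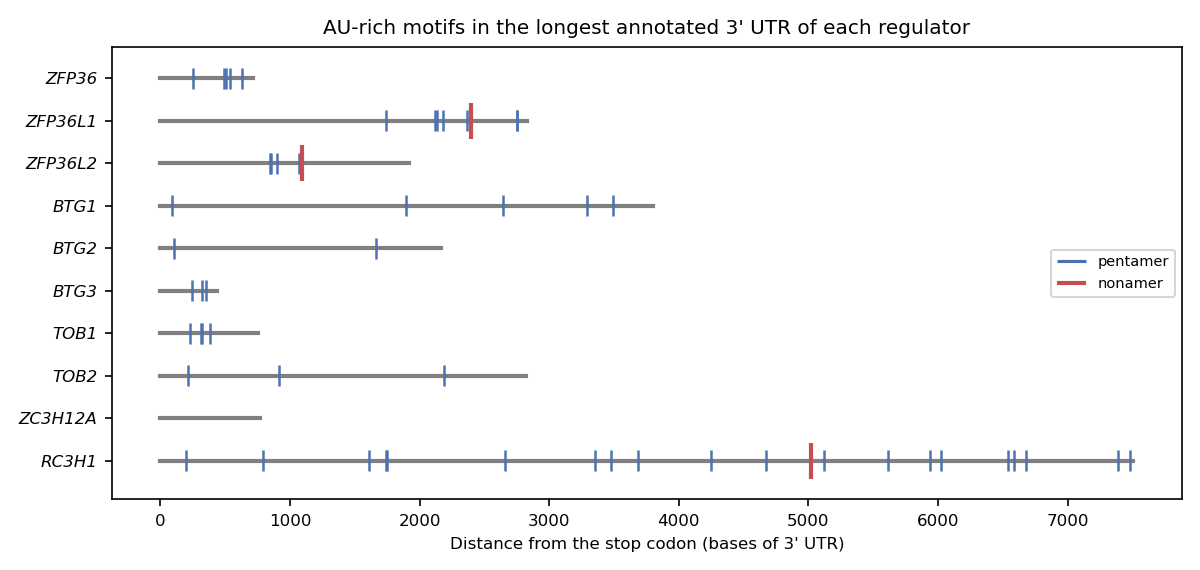
Position of AU-rich pentamers (thin blue ticks) and of the nonamer UAUUUAUUU (tall red ticks) along the longest annotated 3′ UTR of each of the 10 regulators, in bases from the stop codon. This nonamer is seen in ZFP36L1, ZFP36L2 and RC3H1, and the 3′ UTR of ZC3H12A carries neither motif. Other nonamers were not counted.

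The deposited values are TPM, a relative transcript level corrected for transcript length, and TPM keeps no read totals, so depth is unknown. Mitochondrial genes took 6.43 to 14.9% of the TPM in LY libraries. In DMSO libraries they took 12.2 to 14.1%, apart from NC-2, where they took 37.5%. Results are therefore also given without NC-2 where that matters. As to cell identity, the ductal keratins KRT8 (1182 to 1514 against 1069 to 1601 TPM, LY against DMSO) and KRT18 (941.3 to 1088 against 663.6 to 832.7 TPM) were high. KRT19 stood at 15.8 to 24.7 TPM in LY and 123 to 166 TPM in DMSO libraries, and KRT7 stayed at or below 0.222 TPM in LY and 0.303 TPM in DMSO libraries. All 4 endocrine markers and 4 of 5 acinar markers were at 0 in every library. CD3E, PECAM1, KDR, DCN and LUM, defining markers of T cells, endothelium and fibroblasts, were also at 0. The summed endothelial markers had 2.74 to 3.32 TPM in LY and 0.0988 to 0.535 TPM in DMSO libraries, and the summed fibroblast markers 27.6 to 37.7 and 68.8 to 114.6 TPM, nearly all from CDH5 and COL1A2. CD68, a lysosomal protein gene used as a macrophage marker, had 131 to 232 TPM in LY and 34.5 to 47.4 TPM in DMSO libraries, with the leukocyte gene PTPRC at or below 0.0214 TPM throughout. CD14, a monocyte marker, went the other way, with at most 0.113 TPM in LY and 0.340 to 0.559 TPM in DMSO libraries. The part of KRT19, CDH5, COL1A2, CD68 and CD14 in the results was not tested. Bulk RNA does not tell a change in RNA per cell from a change in the share of cells that carry it.

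Of the 10 regulators, 6 rose in LY libraries (ZFP36L1, ZFP36L2, BTG1, BTG2, BTG3 and TOB2), 1 fell (ZC3H12A) and 3 did not pass the test (ZFP36, TOB1 and RC3H1). The test was limma's moderated test on log2(TPM + 1) over the 11663 genes with at least 1 TPM in at least 5 libraries, all 10 members among them, with Benjamini-Hochberg adjustment and a threshold of 0.05. Treatment moved much of the transcriptome, since 64.6% of all tested genes passed, 39.8% upward and 24.9% downward, so 7 called members of 10 is near the background. The groups did not overlap for the same 7 members, against 49.4% of all tested genes, 32.7% with LY higher and 16.7% with LY lower. The median log2 fold change, LY over DMSO, was 0.77 over the members and 0.17 over all tested genes. Fold changes below are on the log2(TPM + 1) scale, which understates the change of low genes.

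**Figure D2:**
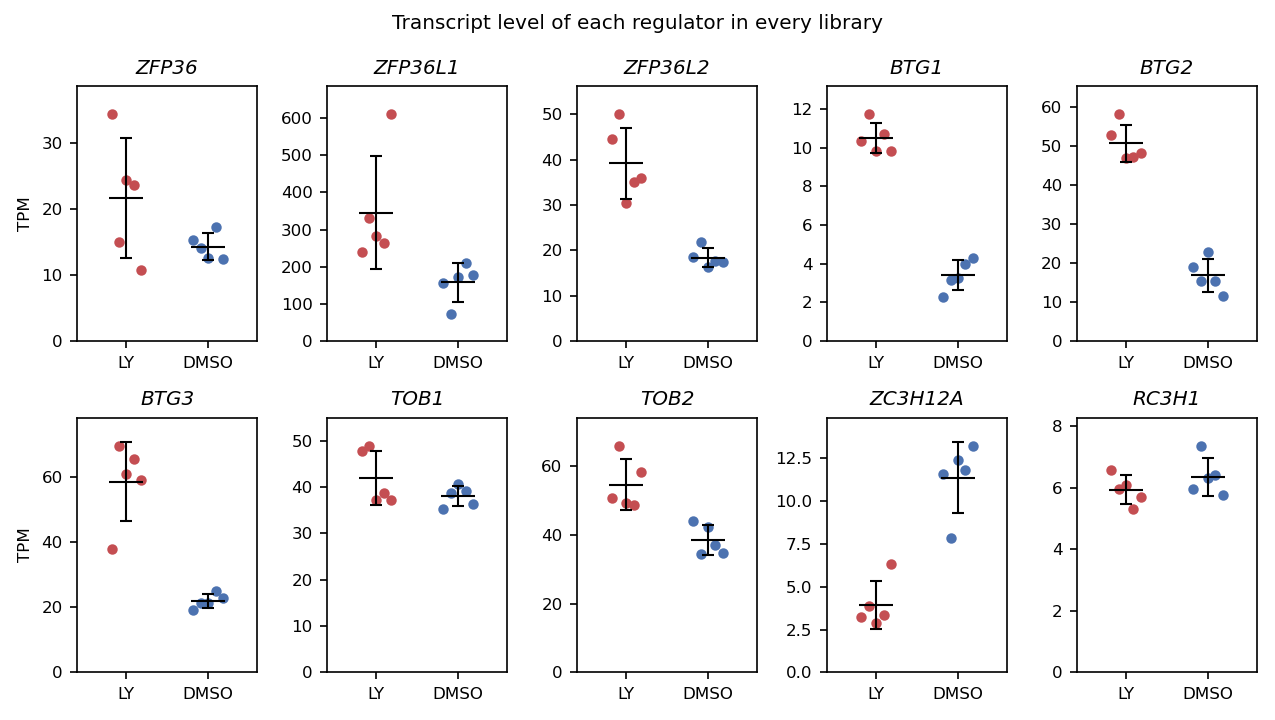
TPM of each of the 10 regulators in every library, LY left and DMSO right; points are libraries, the long bar is the group mean and the whiskers are 1 SD (n = 5 each), and the axes start at 0 with a scale per gene. LY and DMSO points are apart for ZFP36L1, ZFP36L2, BTG1, BTG2, BTG3, TOB2 and ZC3H12A, and they overlap for ZFP36, TOB1 and RC3H1.

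In the ZFP36 family, ZFP36L1 and ZFP36L2 rose to slightly over 2-fold of their DMSO levels, while ZFP36 itself, also called tristetraprolin, varied too much among LY libraries to pass. ZFP36L1 (ENSG00000185650, chr14:68787660-68796253, minus strand), the most abundant regulator of the 10 in both groups, had 240.3, 332, 284, 263 and 610.5 TPM in LY-1 to LY-5, against 157, 71.9, 173, 209.6 and 177 TPM in NC-1 to NC-5. Every LY library was above every DMSO library, with LY-5 far above the rest of its group and NC-2 far below the rest of its own. The means were 346 ± 152 TPM in LY and 158 ± 51.6 TPM in DMSO libraries (SD, n = 5 each), and the log2 fold change was 1.12 ± 0.30 (SE; adjusted p = 0.00638, limma). It was 0.90 without LY-5, 0.86 without NC-2 and 0.64 without both (adjusted p = 0.000894, limma), so the size, though not the call, rests on these libraries.

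ZFP36L2 (ENSG00000152518, chr2:43222402-43226609, minus strand), like ZFP36L1 an AU-rich element binding protein, was steadier. It had 44.5, 50.0, 30.4, 35.1 and 36.0 TPM in LY-1 to LY-5, against 18.5, 21.9, 16.4, 17.6 and 17.4 TPM in NC-1 to NC-5. The lowest LY library was above the highest DMSO library. Means were 39.2 ± 7.88 and 18.4 ± 2.10 TPM in LY and DMSO libraries (SD, n = 5 each), with a log2 fold change of 1.04 ± 0.14 (SE; adjusted p = 3.61e-05, limma).

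ZFP36 (ENSG00000128016, chr19:39406813-39409412, plus strand), an immediate early gene in many cells, had 34.4, 15.1, 24.5, 23.7 and 10.8 TPM in LY-1 to LY-5, against 15.4, 14.1, 12.5, 17.2 and 12.4 TPM in NC-1 to NC-5. Of the LY libraries, 3 were above all DMSO libraries, 1 lay among them and LY-5 was below them. The log2 fold change of 0.48 had a 95% interval of -0.07 to 1.02 (adjusted p = 0.115, limma). Leaving out LY-5 gave 0.69 with adjusted p = 0.0118 (limma), so that 1 library decides the call. LY-5 thus held the lowest ZFP36 and the highest ZFP36L1 of its group.

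Summed over the 3 paralogs, the family had 407 ± 144 TPM in LY and 190.3 ± 50.3 TPM in DMSO libraries (SD, n = 5 each), with ranges of 319 to 657 and 108 to 244 TPM. ZFP36L1 made up 83.5 ± 6.30% of that sum in LY and 81.2 ± 8.26% in DMSO libraries. ZFP36L2 made up 10.4 ± 3.31% and 10.7 ± 5.40%, and ZFP36 6.16 ± 3.53% and 8.08 ± 2.92%, in LY and DMSO libraries. All 3 shares overlapped between the groups: the family's total was apart between groups while the make-up was not.

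All 3 BTG genes rose, to between 2.68-fold and 3.09-fold of the DMSO mean TPM, and they hold the 3 largest rises among the 10 regulators. BTG2 (ENSG00000159388, chr1:203305491-203309602, plus strand), a p53-inducible gene whose protein activates deadenylation, had 53.0, 58.2, 47.1, 47.2 and 48.2 TPM in LY-1 to LY-5, against 18.9, 15.3, 22.9, 15.4 and 11.6 TPM in NC-1 to NC-5. The LY libraries lay close together and all stood above the highest control, at more than its double. Means were 50.7 ± 4.83 and 16.8 ± 4.28 TPM in LY and DMSO libraries (SD, n = 5 each), and the log2 fold change was 1.57 ± 0.15 (SE; 95% interval 1.23 to 1.90; adjusted p = 3.40e-06, limma). Of all tested genes, 3.45% had a larger log2 fold change.

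BTG1 (ENSG00000133639, chr12:92140278-92145897, minus strand), the closest paralog of BTG2 and a gene known from quiescent lymphoid cells, was low in both groups. It had 10.3, 11.7, 9.83, 10.7 and 9.80 TPM in LY-1 to LY-5, against 2.29, 3.16, 3.25, 3.97 and 4.27 TPM in NC-1 to NC-5. No library of one group came near the other group. Means were 10.5 ± 0.79 and 3.39 ± 0.77 TPM in LY and DMSO libraries (SD, n = 5 each), the log2 fold change was 1.40 ± 0.13 (SE; adjusted p = 2.02e-06, limma), and 4.91% of tested genes had a larger one.

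BTG3 (ENSG00000154640, chr21:17593653-17612947, minus strand), a more distant member that is also p53-inducible, had 37.95, 69.4, 60.8, 65.3 and 59.0 TPM in LY-1 to LY-5, against 19.1, 21.3, 21.2, 24.9 and 22.9 TPM in NC-1 to NC-5. LY-1 was the lowest of its group, yet above every DMSO library. Means were 58.5 ± 12.2 and 21.9 ± 2.16 TPM in LY and DMSO libraries (SD, n = 5 each), with a log2 fold change of 1.36 ± 0.15 (SE; adjusted p = 9.46e-06, limma), exceeded by 5.41% of tested genes. BTG1 and BTG3 overlap annotated antisense genes that are not rows of the table used here, and the strand of counting is not stated, so antisense reads cannot be told apart from theirs. TOB1 has such an antisense neighbour as well. On their own strand, BTG1 overlaps LINC01619, RC3H1 overlaps RC3H1-IT1 and RNA5SP68, and ZC3H12A overlaps MIR6732. Strand could not separate reads of these genes.

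The TOB genes moved less. TOB2 (ENSG00000183864, chr22:41433492-41447023, minus strand), which binds the poly(A)-binding protein as well as the deadenylase, had 50.8, 65.8, 49.3, 48.6 and 58.1 TPM in LY-1 to LY-5, against 44.0, 34.4, 42.3, 36.9 and 34.6 TPM in NC-1 to NC-5. The groups did not overlap, although the gap between LY-4 and NC-1 was small. Means were 54.5 ± 7.35 and 38.4 ± 4.47 TPM in LY and DMSO libraries (SD, n = 5 each), and the log2 fold change was 0.49 ± 0.11 (SE; adjusted p = 0.00253, limma). A larger value was seen in 32.5% of tested genes. The call was lost under quantile normalization (0.23, adjusted p = 0.0761, limma) and upper-quartile scaling (0.23, adjusted p = 0.0867, limma).

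TOB1 (ENSG00000141232, chr17:50862223-50867978, minus strand), the paralog of TOB2 with the same known binding partners, had 47.7, 48.9, 37.2, 38.8 and 37.1 TPM in LY-1 to LY-5, against 35.3, 38.7, 40.6, 39.2 and 36.3 TPM in NC-1 to NC-5. LY-1 and LY-2 were above all DMSO libraries and the other 3 lay among them. The log2 fold change was 0.13 with a 95% interval of -0.10 to 0.36 (adjusted p = 0.30, limma). Its sign turned under all 3 other scalings (median-ratio, quantile, upper-quartile) and when mitochondrial genes were removed, so no direction can be given.

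Because BTG and TOB proteins bind the same deadenylases, their transcripts were also summed. The 5 genes together had 216 ± 21.7 TPM in LY and 118 ± 7.94 TPM in DMSO libraries (SD, n = 5 each; ranges 199.8 to 254 and 109.7 to 130.2 TPM). Within that sum, a share that multiplying a library by 1 factor cannot change, TOB1 made up 19.4 ± 2.56% in LY and 32.1 ± 1.85% in DMSO libraries. TOB2 made up 25.2 ± 1.65% and 32.4 ± 2.59%, and BTG2 23.5 ± 1.70% and 14.1 ± 2.72%, in LY and DMSO libraries. The groups did not overlap for these 3 shares or for BTG1 (4.86 ± 0.26% in LY, 2.88 ± 0.76% in DMSO), whereas BTG3 overlapped (27.0 ± 4.71% in LY, 18.5 ± 2.35% in DMSO). TOB1 and TOB2 together were thus the larger part of the sum in DMSO libraries and the smaller part in LY libraries. Among the 3 BTG genes alone, whose sum was 120 ± 13.7 TPM in LY and 42.1 ± 3.60 TPM in DMSO libraries, every share overlapped.

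**Figure D3:**
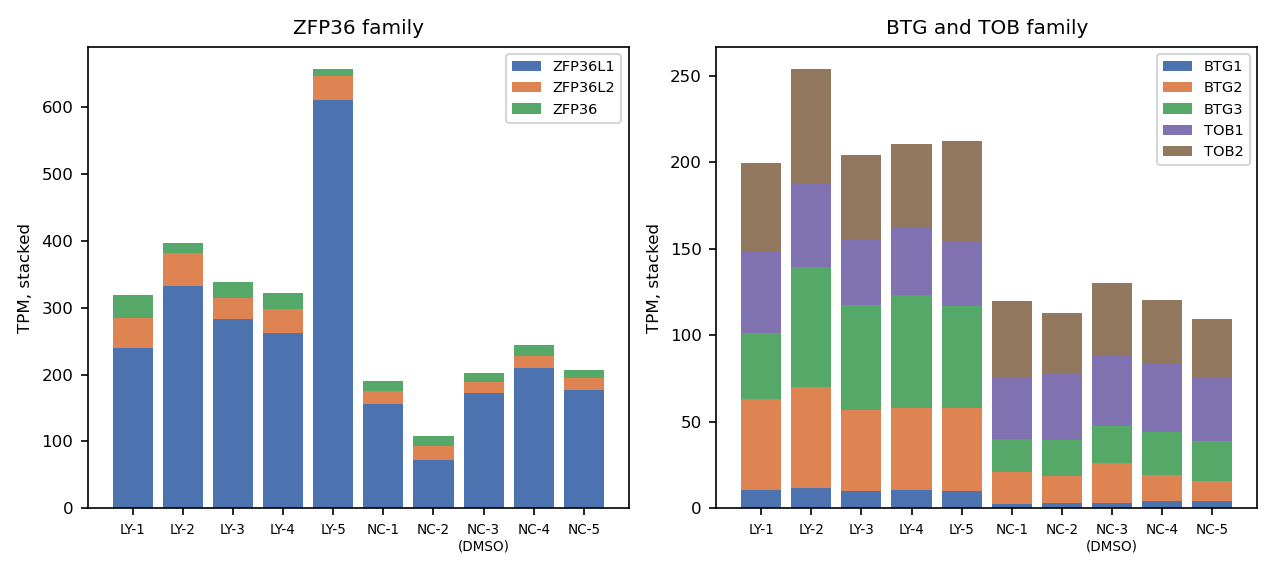
Stacked TPM per library, LY-1 to LY-5 left and NC-1 to NC-5 (DMSO) right, of the ZFP36 family and of the BTG and TOB genes; bar height is the sum, and the axes start at 0. ZFP36L1 is most of the family sum in every library, and the BTG and TOB sum runs from 199.8 to 254 TPM in LY and from 109.7 to 130.2 TPM in DMSO libraries.

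Their shared partners moved the other way. CNOT7 fell to 28.1 ± 3.11 TPM in LY libraries, against 36.3 ± 3.84 TPM in DMSO libraries (SD, n = 5 each), with a log2 fold change of -0.36 ± 0.10 (SE; adjusted p = 0.00922, limma). CNOT8 fell to 26.8 ± 4.59 TPM in LY libraries, against 40.3 ± 6.33 TPM in DMSO libraries, with a log2 fold change of -0.58 ± 0.15 (SE; adjusted p = 0.00443, limma). The 2 transcripts together had 46.1, 54.8, 60.9, 57.8 and 54.5 TPM in LY-1 to LY-5, against 62.5, 73.7, 79.0, 85.1 and 82.8 TPM in NC-1 to NC-5, with no overlap. Each transcript alone did overlap between the groups. CNOT7 had 33.35 TPM in LY-3 and 32.2 TPM in NC-1, and CNOT8 had 32.48 TPM in LY-4 and 30.35 TPM in NC-1. Of all tested genes, 16.7% had every LY library below every DMSO library. CNOT7 was singled out after its value was seen, since it and CNOT8 are the deadenylases that BTG and TOB proteins bind. Protein levels were not measured.

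ZC3H12A was the only regulator of the 10 that fell, apart from RC3H1 under 1 other scaling, given below. ZC3H12A (ENSG00000163874, chr1:37474552-37484379, plus strand) had 3.25, 3.85, 2.88, 3.37 and 6.32 TPM in LY-1 to LY-5, against 11.6, 7.83, 12.4, 11.8 and 13.2 TPM in NC-1 to NC-5. All LY libraries were below all DMSO libraries, with LY-5 the highest of its group and NC-2 the lowest of its own. Means were 3.93 ± 1.38 and 11.4 ± 2.07 TPM in LY and DMSO libraries (SD, n = 5 each), so that DMSO was 2.89-fold higher. The log2 fold change was -1.35 ± 0.18 (SE; 95% interval -1.75 to -0.95; adjusted p = 4.58e-05, limma), and 5.66% of tested genes had a lower one. Without LY-5 and NC-2 it was -1.61.

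RC3H1 (ENSG00000135870, chr1:173931214-174022297, minus strand) had 6.59, 5.96, 6.10, 5.32 and 5.70 TPM in LY-1 to LY-5, against 5.98, 7.37, 6.32, 6.41 and 5.76 TPM in NC-1 to NC-5. The groups overlapped widely. The log2 fold change was -0.09 with a 95% interval of -0.30 to 0.12 (adjusted p = 0.453, limma), an interval that ends well short of the value of ZC3H12A. Under upper-quartile scaling alone it passed as a fall (-0.32, adjusted p = 0.0415, limma).

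**Figure D4:**
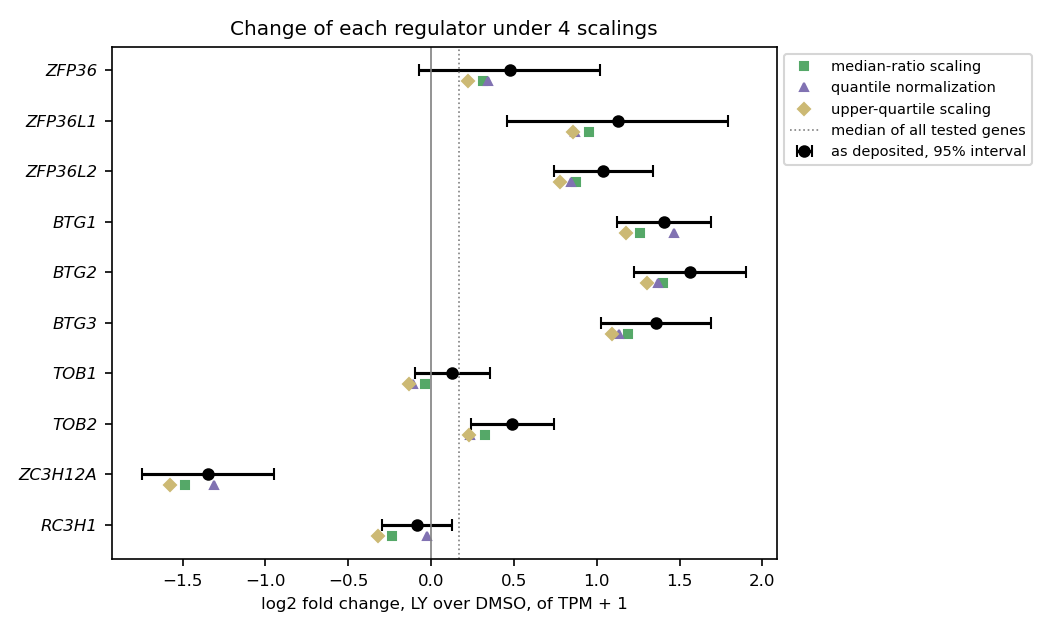
Log2 fold change, LY over DMSO, of TPM + 1 for the 10 regulators as deposited (black, with 95% interval, n = 5 each) and after 3 scalings across libraries (coloured symbols); the dotted line is the median of all tested genes, 0.17. BTG1, BTG2 and BTG3 keep values above 1 and ZC3H12A a value below -1 under all 4, while TOB1 lies on both sides of 0.

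By mean TPM, the order in LY libraries was ZFP36L1, BTG3, TOB2, BTG2, TOB1, ZFP36L2, ZFP36, BTG1, RC3H1 and ZC3H12A. Neighbours in that order had separate ranges at 2 places only, between ZFP36L1 and BTG3 and between BTG1 and RC3H1. Compared within each library, BTG2 was still above TOB1, ZFP36L2 above ZFP36 and ZFP36 above BTG1 in all 5 LY libraries. The other overlapping neighbours kept their order in 4 LY libraries. In DMSO libraries the order was ZFP36L1, TOB2, TOB1, BTG3, ZFP36L2, BTG2, ZFP36, ZC3H12A, RC3H1 and BTG1. There the ranges were separate between ZFP36L1 and TOB2, TOB1 and BTG3, ZC3H12A and RC3H1, and RC3H1 and BTG1. BTG1 was thus above RC3H1 in all 5 LY libraries and below it in all 5 DMSO libraries.

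Related paralogs outside the 10 were read from the same fit. Of 7 listed, 4 were tested, 3 rose and 1 did not pass, and BTG4 was at 0 in every library. ZC3H12C, a sister of ZC3H12A with the same type of nuclease domain, rose to 5.75 ± 0.51 TPM in LY libraries, against 1.98 ± 0.35 TPM in DMSO libraries (SD, n = 5 each; log2 fold change 1.18 ± 0.11, SE; adjusted p = 2.01e-06, limma). N4BP1, another protein with a related nuclease domain, rose to 33.7 ± 1.87 TPM in LY libraries, against 18.4 ± 1.50 TPM in DMSO libraries (adjusted p = 5.88e-06, limma). RC3H2, the paralog of RC3H1, rose as well (log2 fold change 0.73), and KHNYN did not pass (adjusted p = 0.243, limma). ZC3H12B was too low to be tested, with means of 0.10 TPM in LY and 0.21 TPM in DMSO libraries. With no filter, 1 of the listed paralogs passed as a fall. In the nuclease family, then, ZC3H12A fell while its tested relatives ZC3H12C and N4BP1 rose.

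Across 9 lists of other decay genes and targets, these paralogs included, 109 of 120 genes were tested, of which 52 rose, 22 fell and 35 did not pass, with a median log2 fold change of 0.30 beside 0.17 for all tested genes. In percent, the rises lie somewhat above the 39.8% and the falls somewhat below the 24.9% of the whole table, a difference that was not tested. The split moved with the scaling, to 41 rises and 29 falls under median-ratio scaling, to 40 and 30 under quantile normalization and to 35 and 36 under upper-quartile scaling. The median of all tested genes shifted likewise, to 0.01, 0.05 and -0.08 under these 3 scalings.

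Among 15 deadenylase genes, which carry the catalytic and scaffold subunits the regulators recruit, 5 rose, 3 fell and 7 did not pass (median 0.05). CNOT4, a ubiquitin ligase associated with the complex, rose to 47.9 ± 11.2 TPM in LY libraries, against 20.2 ± 6.96 TPM in DMSO libraries (log2 fold change 1.23). CNOT9, a scaffold subunit, rose to 101 ± 27.5 TPM in LY libraries, against 57.7 ± 6.75 TPM in DMSO libraries (log2 fold change 0.77). Besides CNOT7 and CNOT8, TNKS1BP1, another protein bound to the complex, fell (log2 fold change -0.54, adjusted p = 0.0265, limma), a call that was lost in the exact permutation test and without LY-1, LY-2, NC-1, NC-3 or NC-4. Upper-quartile scaling turned the counts to 3 rises and 6 falls.

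Of 17 genes of decapping and 5′ decay, which follow deadenylation, 6 rose, 5 fell and 6 did not pass (median 0.26). DCP1A, an activator of the decapping enzyme, rose to 34.2 ± 3.61 TPM in LY libraries, against 10.5 ± 0.95 TPM in DMSO libraries (log2 fold change 1.61 ± 0.10, SE; adjusted p = 1.24e-07, limma). XRN1, the cytoplasmic 5′ exonuclease, rose by 0.71. DCPS, which clears the cap left by 3′ decay, fell to 12.1 ± 1.17 TPM in LY libraries, against 28.9 ± 3.42 TPM in DMSO libraries (log2 fold change -1.18 ± 0.11, SE; adjusted p = 1.93e-06, limma). LSM4, of the ring that binds shortened tails, fell with a log2 fold change of -0.81, a call lost in the exact permutation test (adjusted p = 0.0722). NC-2 had 148.1 TPM of LSM4 where the other DMSO libraries had 350.5 to 438.2 TPM and the LY libraries 150.9 to 229.4 TPM. Its log2 fold change ran from -1.21 to -0.70 over the alternatives. The rises of this list numbered 3 under quantile normalization and 2 under upper-quartile scaling.

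The 15 genes of the exosome and SKI complex, which degrade from the 3′ end, had 6 rises, 1 fall and 8 that did not pass (median 0.27). DIS3, a catalytic exosome subunit, rose to 49.1 ± 6.79 TPM in LY libraries, against 14.7 ± 1.41 TPM in DMSO libraries (log2 fold change 1.67 ± 0.12, SE; adjusted p = 2.12e-07, limma). The related gene DIS3L did not pass, with 20.9 ± 3.06 TPM in LY and 18.8 ± 2.91 TPM in DMSO libraries (adjusted p = 0.331, limma). EXOSC10, a mostly nuclear exosome nuclease, rose by 0.95. TTC37, a SKI scaffold, fell to 23.2 ± 2.25 TPM in LY libraries, against 33.2 ± 1.22 TPM in DMSO libraries (adjusted p = 0.000355, limma). This list had 5 rises and 2 falls under median-ratio scaling, 5 and 4 under quantile normalization and 3 and 5 under upper-quartile scaling, and 2 falls without NC-2.

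Of the 8 poly(A)-binding proteins and their regulators, 7 were tested and 6 rose (median 0.45), a count that came to 3 under each of the other 3 scalings. LARP4 and LARP4B, which bind the poly(A)-binding protein and are linked to longer tails and stable mRNA, rose by 1.27 and 1.12. Of 9 other proteins that bind AU-rich or other 3′ UTR elements, 5 rose, 1 fell and 3 did not pass (median 0.31), and 2 rose and 2 fell under each of the 3 scalings, and 3 rose without LY-3 or without LY-4. CELF1, which recruits a deadenylase to its own sites, rose by 0.59, and TIA1, a translational repressor, fell with a log2 fold change of -0.35. Among 7 miRNA silencing genes, 4 rose, 2 fell and 1 did not pass (median 0.56). TNRC6C, a GW182 protein that links Argonaute to CCR4-NOT, rose to 13.0 ± 1.30 TPM in LY libraries, against 2.73 ± 0.56 TPM in DMSO libraries (log2 fold change 1.92). AGO3 rose by 1.22, and AGO1 fell with a log2 fold change of -0.59. TNRC6B fell with -0.45 (adjusted p = 0.0359, limma), and that call was lost in the exact permutation test and without LY-1, LY-2, LY-5, NC-2, NC-3 or NC-4.

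**Figure D5:**
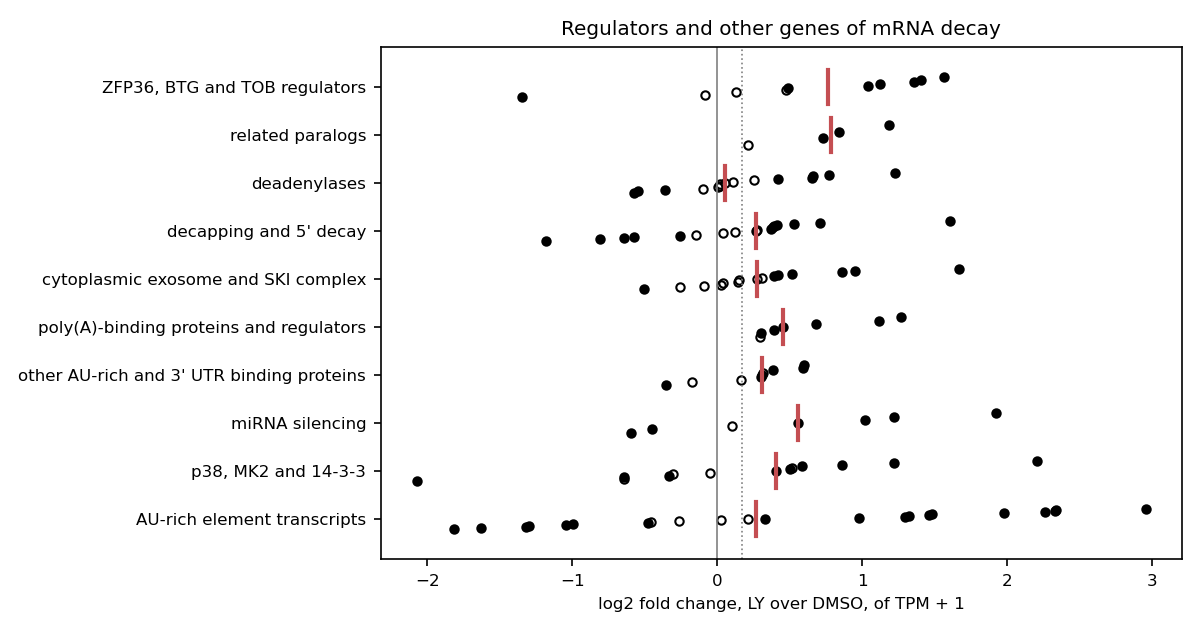
Log2 fold change, LY over DMSO, of TPM + 1 for the 10 regulators (top) and 9 lists of related genes; each point is a gene, filled where adjusted p is under 0.05 (limma, n = 5 each), red bars are list medians and the dotted line is the median of all tested genes, 0.17. The AU-rich element transcripts spread widest, from -1.82 for NFKBIZ to 2.96 for IL1A.

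The p38 pathway controls ZFP36 proteins: its kinase MK2 phosphorylates them, 14-3-3 proteins then bind, and their decay activity drops. Of 15 listed genes 13 were tested, with 6 rises, 3 falls and 4 that did not pass (median 0.40), and 6 falls under upper-quartile scaling. DUSP1, a phosphatase that switches p38 off, had 196, 210.2, 209.1, 217 and 205 TPM in LY-1 to LY-5, against 27.6, 21.8, 39.4, 84.2 and 82.5 TPM in NC-1 to NC-5. All LY libraries were above all DMSO libraries, and NC-4 and NC-5 were above NC-1 to NC-3. The log2 fold change was 2.21 ± 0.33 (SE; adjusted p = 9.80e-05, limma). MAPK11, the p38 beta kinase, fell to 1.38 ± 0.40 TPM in LY libraries, against 9.39 ± 3.10 TPM in DMSO libraries (SD, n = 5 each; log2 fold change -2.07). MAPK14, the p38 alpha kinase, fell as well (log2 fold change -0.64, adjusted p = 0.0202, limma), though not without NC-3 or in the exact permutation test. MAPKAPK3, a kinase related to MK2, rose to 33.3 ± 4.27 TPM in LY libraries, against 13.9 ± 2.74 TPM in DMSO libraries. Phosphorylation was not measured.

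Transcripts known for AU-rich elements moved in both directions. Of 27 listed, 22 were tested, 11 rose, 7 fell and 4 did not pass (median 0.27), and IL6, CCL20 and CSF2 were at 0 in every library. The largest rise was that of IL1A, the cytokine interleukin-1 alpha, with 18.1, 14.8, 18.9, 19.5 and 12.9 TPM in LY-1 to LY-5, against 1.03, 0.74, 0.88, 1.40 and 2.84 TPM in NC-1 to NC-5. CXCL8, the chemokine interleukin-8, rose to 345 ± 36.5 TPM in LY libraries, against 74.0 ± 36.7 TPM in DMSO libraries (log2 fold change 2.34 ± 0.27, SE; adjusted p = 1.19e-05, limma). These rises stand beside higher ZFP36L1 and ZFP36L2 and lower ZC3H12A in the same libraries; any link was not tested.

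The falls included NFKBIZ, an NF-kappa-B cofactor whose mRNA is a known target of ZC3H12A in mouse and human cells. It had 2.80, 3.15, 2.58, 3.13 and 4.37 TPM in LY-1 to LY-5, against 10.5, 7.34, 13.5, 19.5 and 22.9 TPM in NC-1 to NC-5, with no overlap and a log2 fold change of -1.82 ± 0.25 (SE; adjusted p = 5.54e-05, limma). NFKBIZ and ZC3H12A thus both fell, and in both LY-5 was the highest LY library and NC-2 the lowest DMSO library. FOS, an immediate early transcription factor gene, fell to 3.84 ± 1.25 TPM in LY libraries, against 16.5 ± 10.5 TPM in DMSO libraries (adjusted p = 0.00439, limma), with NC-1 and NC-2 just above the LY range.

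The nonamer UAUUUAUUU was also counted over the whole table, as a description, since genes are not replicates. Other nonamers around the pentamer were not counted. Of 11492 tested genes with an annotated 3′ UTR, 1269 (11.0%) held at least 1, and 13 of the 22 tested transcripts of the AU-rich list (59.1%) did. Genes with the nonamer had a median log2 fold change of 0.43, with 55.3% rising and 15.2% falling. The 297 genes with at least 2 had a median no higher, at 0.38, with 52.9% rising and 11.8% falling. The 10223 genes without the nonamer had a median of 0.14, with 38.2% rising and 26.1% falling. Their 3′ UTRs differ in length, with medians of 3038 and 1173 bases with and without the nonamer. Within 3′ UTRs of at least 1000 and under 3000 bases, the medians were 0.43 for 478 genes with and 0.19 for 3899 genes without the nonamer. Median lengths in this range still differed, at 2027 bases with and 1703 bases without the nonamer. Over all lengths, the median log2 fold changes with and without the nonamer differed by 0.28 to 0.34 under every alternative run, including those that moved both medians. Base composition was not matched, and its part in the difference was not tested.

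Promoter sequence was looked up for the members from RefSeq (GRCh38.p14, 250 bases before to 50 after each start), where 11 promoters of 9 members were found. On both strands, the cAMP response element TGACGTCA was in 1 of them and in 1.85% of all 35116 promoters, the letters TATAAA in 3 of them and in 11.5% of all, CCAAT in 4 and in 34.6%, and GGGCGG in 7 and in 44.9%. The sites of ZFP36L1, BTG1 and ZC3H12A are shown, with the motif in capitals, because they belong to the most abundant regulator, a regulator that rose and the one that fell.
ZFP36L1, chr14:68793450-68793479, minus strand: agtggaatgagTGACGTCAcagccgcgctc
BTG1, chr12:92145862-92145891, minus strand: ttttcgtggcacTATAAAgggtgctgcacg
ZC3H12A, chr1:37474541-37474570, plus strand: cgcgccgccccaTATAAAggcgccgccgtc
The motifs start at base -52, -33 and -27 from the annotated start of each promoter. By the GENCODE spans given above, these starts all lie inside their genes, close to the 5′ end for BTG1 and ZC3H12A. For ZFP36L1, which spans chr14:68787660-68796253, the start lies further inside. Another ZFP36L1 promoter, with CCAAT at chr14:68796285-68796314, lies near the 5′ end of the gene and holds no TGACGTCA. BTG1 and ZC3H12A, with the same letters at nearly the same distance, moved in opposite directions.

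Genes whose profile over the 10 libraries lay closest to that of BTG2, by root mean square difference of centred log2(TPM + 1), were MLH3 (0.15), BANP (0.16) and SMAGP (0.17). Closest to ZC3H12A were GDPD5 (0.13), DHRS3 (0.14) and NPTXR (0.15). These values describe likeness over 5 LY and 5 DMSO libraries, most of which is the difference between the groups.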

How the data were processed

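RNA of PANC-1 cells was sequenced in 5 LY and 5 DMSO libraries; per the labels' protocols, RNA was prepared with an RNeasy kit and libraries with a Hieff mRNA kit, whereas the series text names Trizol. The authors deposited 1 table of TPM, with column sums of 999932 to 999967. Builds GRCm38, mm10 and hg38 appear without roles in the submitters' processing notes, and the gene IDs are human. Which aligner, counter and annotation made the table is not stated in these sources. Since TPM keeps no depth, no counting interval is given.

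From the deposited TPM, log2(TPM + 1) was computed, genes with at least 1 TPM in at least 5 of 10 libraries were kept (11663), and limma 3.58.1 (R 4.3.3) was run with a mean-variance trend and the group as its only term. Benjamini-Hochberg adjustment covered all kept genes, with a threshold of 0.05. The fit was run on simulated data with few changed genes, of random direction, and a spread taken from DMSO libraries without NC-2. That run cannot speak to broad shifts, scaling or outlying libraries. Positions and 3′ UTRs came from GENCODE release 29, and 20148 symbols from the gene name table with 76 more from GENCODE. The members and lists were chosen with earlier results of these data known. Named are all members and, per list, the 2 largest rises and 2 largest falls among called genes. Some genes that these rules name are not reported here. For the member with the largest rise and the one with the largest fall, the 3 nearest profiles are named. Alternatives were pseudocounts of 0.1 and 0.5, no filter or one of 5 TPM, 3 scalings, removal of mitochondrial genes, no trend, robust moderation, each library left out, and an exact permutation test per gene.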

Additional observations from a re-analysis of the deposited data

Results flagged for a closer look

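In 12 of 104 groups of 5 libraries tested, 1 library stood far from the rest of its group (a gap to the nearest library over 0.71 of the range). Chance gives this in about 1 of 20 groups of normal values. The groups are not independent, since the shares and sums reuse the values of the same genes, so no excess can be read from the count. In LY-5, ZFP36L1 had 610.5 TPM where the other LY libraries had 240.3 to 332 TPM, and the ZFP36 family sum was 657 TPM, with 319 to 397 TPM in the others. ZC3H12A in LY-5 was at 6.32 TPM, above 2.88 to 3.85 TPM in the other LY libraries, and ZC3H12C at 4.85 TPM, below 5.90 to 6.14 TPM. In LY-1, the BTG sum was made up differently, with BTG1 at 10.2% (8.35 to 8.71% in the other LY libraries), BTG2 at 52.3% (38.3 to 41.8%) and BTG3 at 37.5% (49.8 to 53.0%). The BTG and TOB sum reached 254 TPM in LY-2 and 199.8 to 212 TPM in the other LY libraries. In NC-2, ZFP36L1 was 66.6% of its family (82.2 to 85.8% in the other DMSO libraries) and ZFP36L2 20.3% (7.20 to 9.69%). DCPS in NC-2 was at 23.1 TPM, with 29.6 to 32.2 TPM in the other DMSO libraries, and DIS3 at 12.3 TPM, with 14.9 to 15.9 TPM.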

How the results depend on the processing

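Under the 23 alternatives run per member, ZFP36L1, ZFP36L2, BTG1, BTG2, BTG3 and ZC3H12A kept direction and call in every one, with log2 fold changes of 0.64 to 1.25, 0.78 to 1.13, 1.18 to 1.63, 1.31 to 1.68, 1.09 to 1.50 and -1.61 to -1.27. TOB1 turned to -0.038 under median-ratio, -0.112 under quantile and -0.135 under upper-quartile scaling, and to -0.025 with mitochondrial genes removed. Under upper-quartile scaling, 2 members fell, 36 related genes fell and 4371 of all tested genes fell, against 1, 22 and 2899 as deposited. Rises and falls over all genes were 4639 and 2899 as deposited, 3853 and 3863 under median-ratio, 4055 and 3694 under quantile and 3346 and 4371 under upper-quartile scaling; the cause was not tested. Leaving out 1 library each, 6 to 7 members rose and 1 fell. Leaving out LY-5 and NC-2 together, an alternative chosen after seeing the data, gave 7 rises and 1 fall, 53 and 28 among related genes. The exact permutation test, over all assignments of 5 and 5 libraries, has a smallest p of 0.0079 and gave 6 rises and 1 fall. No paired analysis was possible because the numbers of the control columns are not tied to numbered samples. Depth is unknown, so the precision of low genes such as ZC3H12A and BTG1 rests on the spread between libraries alone.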
